A study of Mus musculus with 16 samples.

Results

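WT tumors and the adjacent normal colon of the same mice were compared in Foxp3YFP-Cre mice, whose Treg cells kept the IL-23 receptor and which are called WT here. The comparison holds 6 of the 16 RNA-seq libraries of the series, 3 from WT tumors and 3 from WT adjacent normal tissue, with 1 of each kind from mouse2988, mouse2989 and mouse2990. The libraries were picked by the tissue and genotype in the sample labels, with no measured value used to pick them. The comparison and the gene lists below were chosen with earlier results of these data known. Of the 19574 genes in the count table, 17122 passed a filter on low counts and were tested.

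The mice were males of 7 to 8 weeks and received azoxymethane (AOM), a colon carcinogen, at 10 mg/kg. They then had 3 cycles of 5 days of 3.5% dextran sulfate sodium (DSS), a detergent-like sugar polymer that injures the colon epithelium, each followed by 16 days of recovery. RNA came from whole pieces of tissue, so each library mixes epithelium, stroma and immune cells, and the adjacent normal pieces spanned the full thickness of the colon, muscle layers included. The 10 other libraries, from 5 mice that lack *Il23r* in Treg cells, entered the fit only to share its estimate of the spread. The adjacent tissue had the same AOM and DSS exposure as the tumors, and no untreated colon was analysed here. All 3 WT mice carry the same cage label. The number of tumors behind each tumor library is not given in the sources used here.

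The colon epithelium is renewed from stem cells at the crypt base, which are held in their state by Wnt signals that keep beta-catenin in the nucleus. Cells that move up the crypt leave that signal and become colonocytes, which take up water, salt and short-chain fatty acids, goblet cells, which make mucus, hormone-secreting enteroendocrine cells or tuft cells. Tumors of the AOM/DSS model are known for mutations that activate beta-catenin, and they grow in tissue inflamed by DSS. Paneth cells, which secrete antimicrobial peptides, normally belong to the small intestine and are scarce in the mouse colon.

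Total counts ran from 34418067 to 56740014 in WT tumors and from 45344433 to 53584620 in WT adjacent normal tissue. *Rn18s*, a ribosomal RNA, took 29.7, 6.62 and 17.8% of the counts in the tumors of mouse2988, mouse2989 and mouse2990, against 19.4, 17.1 and 2.39% in their adjacent normal tissue. All values per library below are given in that order of mice. They are CPM, read counts scaled to the size of the library, after TMM, which corrects each library for its composition. The tumor library of mouse2988 stood apart. Its counts ran against gene length more than those of any other library (Spearman's rho across genes -0.518, against -0.078 to 0.0512 in the other WT tumors and -0.0405 to 0.368 in WT adjacent normal tissue). Each p-value measures the spread between the mice of a group, shared over the 4 groups, from 1 experiment with 3 WT mice. The main fit did not pair the 2 libraries of a mouse. The 5 epithelial markers summed to 11270, 7131 and 6002 CPM in WT tumors, against 10000, 9199 and 6985 CPM in WT adjacent normal tissue. The 4 smooth muscle markers summed to 152, 410 and 225 CPM in WT tumors, against 3721, 4924 and 4623 CPM in WT adjacent normal tissue. The tissues thus differed widely in muscle RNA. The epithelial sums overlapped, but 2 of the 5 markers, *Cdh1* and *Vil1*, were below adjacent normal in every tumor with no overlap (log2 fold changes of -0.63 and -0.66), and most of the sum came from *Krt8* and *Krt18*.

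Calls needed a Benjamini-Hochberg adjusted p under 0.05 from edgeR's quasi-likelihood test, with a log2 fold change of tumor over adjacent normal beyond 1 in size. Where a log2 fold change below carries a ± value, that is a standard error worked back from the F statistic of this test. By this rule 2067 genes (12.1% of those tested) were higher and 2210 genes (12.9%) were lower in tumors. The median log2 fold change was 1.89 among the higher genes and -1.93 among the lower genes, and it was -0.01 over all genes tested. A log2 fold change beyond 2 was reached by 973 higher and 1067 lower genes, and beyond 3 by 555 and 513. In 1975 of the higher genes all 3 tumors lay above all 3 adjacent normal libraries, and in 2187 of the lower genes all 3 lay below. Over all genes tested, 23.4% did not overlap in the upward direction and 25.4% in the downward direction. Leaving out mouse2990 gave the smallest counts of the fits that omitted a WT library, 1447 higher and 1501 lower.

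**Figure D1:**
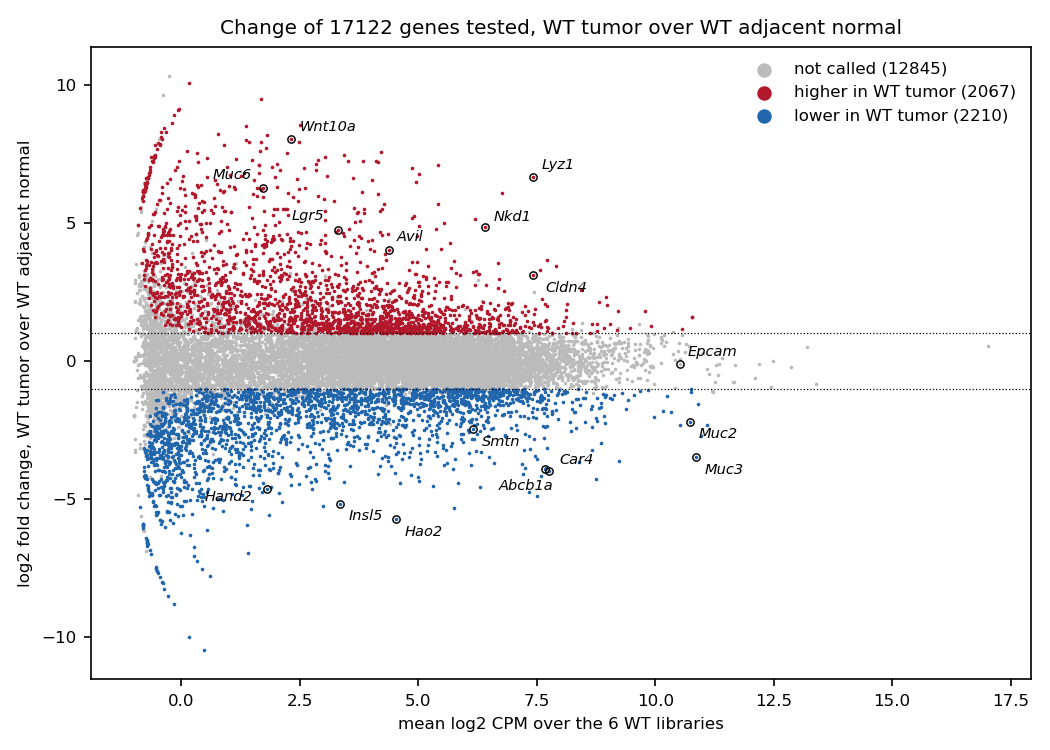
Log2 fold change of WT tumor over WT adjacent normal (y axis) against the mean log2 CPM over the 6 WT libraries (x axis), 1 point per gene tested. Red points are the 2067 genes called higher, blue points the 2210 called lower, grey points were not called, and circles mark genes described in the text. Called genes lie on both sides of 0 over most of the range of expression.

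The smallest p-value among the higher genes was that of *Plxnb1*, closely followed by that of *Vangl2*. *Vangl2*, a core protein of planar cell polarity and non-canonical Wnt signaling, had 22.6, 20.4 and 27.5 CPM in WT tumors, against 3.75, 3.399 and 3.45 CPM in WT adjacent normal tissue. The 3 tumors lay close together and well above the adjacent normal libraries, with a log2 fold change of 2.73 ± 0.20 (adjusted p = 3.3e-06). *Plxnb1*, a receptor for the guidance cue semaphorin 4D, had 70.6, 86.2 and 99.8 CPM in WT tumors, against 12.2, 10.96 and 11.8 CPM in WT adjacent normal tissue (log2 fold change 2.88 ± 0.21, adjusted p = 3.3e-06). *Fgfrl1*, a fibroblast growth factor receptor with no kinase domain, had 131, 71.5 and 119 CPM in WT tumors, against 8.33, 10.96 and 7.57 CPM in WT adjacent normal tissue (log2 fold change 3.58 ± 0.27, adjusted p = 3.4e-06). *Gprin2* and *Tmem132a* completed the first 5, with log2 fold changes of 4.25 and 2.63. Each of these 5 genes kept its call in every alternative fit.

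Among the lower genes the smallest p-values belonged to *Lrrc3*, *Pirt*, *Cth*, *Dpep1* and *Wnk4*. *Pirt*, a regulator of TRP ion channels in sensory neurons, had 0.216, 0.259 and 0.147 CPM in WT tumors, against 4.47, 4.82 and 8.76 CPM in WT adjacent normal tissue (log2 fold change -4.82 ± 0.43, adjusted p = 8.2e-06). *Cth*, which makes cysteine from cystathionine, had 8.496, 11.2 and 8.11 CPM in WT tumors, against 36.4, 45.7 and 46.9 CPM in WT adjacent normal tissue (log2 fold change -2.21 ± 0.21, adjusted p = 1.4e-05). *Dpep1*, a dipeptidase of the cell surface, had 4.96, 4.93 and 4.41 CPM in WT tumors, against 32.3, 41.1 and 52.6 CPM in WT adjacent normal tissue (log2 fold change -3.14 ± 0.32, adjusted p = 1.7e-05). In each of the 3 genes all tumors lay far below the lowest adjacent normal library. By size, at a mean log2 CPM of at least 1, *Slc30a10*, a manganese exporter, had the largest fall (log2 fold change -6.95 ± 1.17, adjusted p = 4.4e-04). It had 0.0863, 0.2101 and 0.0588 CPM in WT tumors, against 5.55, 5.83 and 38.2 CPM in WT adjacent normal tissue, so the size of the fall rested largely on the adjacent normal library of mouse2990, and without that mouse the log2 fold change was -5.10. *Hao2*, a peroxisomal hydroxyacid oxidase, was also among the 10 largest falls (log2 fold change -5.74 ± 1.39, adjusted p = 0.0047). *Hao2* had 0.388, 14.7 and 0.206 CPM in WT tumors, against 141, 248 and 458 CPM in WT adjacent normal tissue, so the tumor of mouse2989 lay well above the other tumors but far below every adjacent normal library. The steroid dehydrogenases *Hsd3b2* and *Hsd3b3* were lower as well, with log2 fold changes of -5.38 and -5.26.

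Genes that beta-catenin is known to switch on rose together in the tumors. Of 25 Wnt target and feedback genes tested, 20 were higher and 1 was lower, with a median log2 fold change of 2.66, and 21 did not overlap upward. *Axin2*, a scaffold that promotes destruction of beta-catenin and the standard readout of the pathway, had 204, 216 and 289 CPM in WT tumors, against 19.3, 31.7 and 27.9 CPM in WT adjacent normal tissue (log2 fold change 3.17 ± 0.26, adjusted p = 5.6e-06). *Nkd1*, which restrains Dishevelled, had 529, 343 and 513 CPM in WT tumors, against 14.3, 21.3 and 12.5 CPM in WT adjacent normal tissue (log2 fold change 4.85 ± 0.42, adjusted p = 7.6e-06). Every tumor lay far above every adjacent normal library in both genes. *Rnf43*, a ubiquitin ligase that removes Wnt receptors, had 141, 141 and 182 CPM in WT tumors, against 40.8, 45.5 and 39.2 CPM in WT adjacent normal tissue (log2 fold change 1.89 ± 0.18, adjusted p = 1.4e-05). *Notum*, an enzyme that inactivates Wnt ligands, had 211, 144 and 226 CPM in WT tumors, against 0.862, 2.61 and 0.3699 CPM in WT adjacent normal tissue (log2 fold change 7.24 ± 1.45, adjusted p = 0.0014). Thus *Nkd1*, *Rnf43* and *Notum*, which all restrain the pathway, were higher along with its other targets. *Sox4*, a transcription factor, rose by 2.66 ± 0.24 (adjusted p = 8.7e-06) and *Tnfrsf19* (Troy), a receptor of stem cells, by 4.35 ± 0.44 (adjusted p = 1.7e-05). The receptor tyrosine kinase gene *Ephb2*, also a target in crypts, had 85.7, 79.04 and 71.8 CPM in WT tumors, against 77.7, 80.1 and 74.2 CPM in WT adjacent normal tissue, which overlapped (log2 fold change 0.03 ± 0.15, adjusted p = 0.9). *Nkd2*, a relative of *Nkd1*, was the lower member (log2 fold change -2.95 ± 0.37, adjusted p = 5.9e-05). The count of higher members lay between 19 and 21 over all alternative fits.

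Of the 16 Wnt ligand genes tested, 6 were higher and 3 lower. *Wnt10a* had 36.2, 30.96 and 49.5 CPM in WT tumors, against 0.162, 0.293 and 0 CPM in WT adjacent normal tissue. It was close to undetected in all adjacent normal libraries, and its log2 fold change of 8.03 ± 1.15 (adjusted p = 1.4e-04) was the largest of the list. *Wnt6* had 80.9, 61.02 and 89.7 CPM in WT tumors, against 1.89, 2.36 and 0.7399 CPM in WT adjacent normal tissue (log2 fold change 5.54 ± 0.67, adjusted p = 4.9e-05). *Wnt3*, a ligand of Paneth cells in the small intestine, had 5.65, 3.57 and 4.61 CPM in WT tumors, against 0.135, 0.135 and 0.136 CPM in WT adjacent normal tissue (log2 fold change 5.06 ± 0.51, adjusted p = 1.7e-05). *Wnt16* had a log2 fold change of 3.84 ± 0.66 (adjusted p = 4.6e-04). *Wnt2b* and *Rspo3*, known from stromal cells, went the other way. *Wnt2b* had 3.54, 5.995 and 2.82 CPM in WT tumors, against 16.4, 19.96 and 18.01 CPM in WT adjacent normal tissue (log2 fold change -2.13 ± 0.34, adjusted p = 3.3e-04). *Rspo3*, the stromal R-spondin that strengthens Wnt signals at the crypt base, had 1.38, 2.91 and 2.17 CPM in WT tumors, against 10.99, 10.7 and 9.13 CPM in WT adjacent normal tissue (log2 fold change -2.24 ± 0.47, adjusted p = 0.0018). Both genes moved with the fall of muscle markers given above, whose part in the result was not tested. *Wnt5a*, a non-canonical ligand, did not overlap between tissues but missed the fold limit (log2 fold change 0.93 ± 0.24, adjusted p = 0.0075).

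Of 15 genes of the crypt base and stem cells, 7 were higher and 1 lower. *Lgr5*, the R-spondin receptor that marks crypt base stem cells, had 49.2, 42.8 and 43.4 CPM in WT tumors, against 1.32, 2.41 and 1.34 CPM in WT adjacent normal tissue. The 3 tumors lay close together, and the log2 fold change was 4.74 ± 0.55 (adjusted p = 4.0e-05). *Smoc2*, a matrix protein of the same cells, had 105, 66.97 and 95.8 CPM in WT tumors, against 16.7, 21.8 and 15.98 CPM in WT adjacent normal tissue (log2 fold change 2.29 ± 0.27, adjusted p = 4.0e-05). *Msi1*, an RNA-binding protein of progenitors, rose by 3.35 ± 0.46 (adjusted p = 1.1e-04). *Olfm4*, a stem cell marker of the human colon and mouse small intestine, was close to undetected, with 0.0431, 0.145 and 0.382 CPM in WT tumors and 0, 0.0225 and 0.0584 CPM in WT adjacent normal tissue (log2 fold change 2.63 ± 1.46, adjusted p = 0.16). *Slc12a2*, a chloride cotransporter of crypt cells, overlapped between the tissues (log2 fold change -0.21 ± 0.33, adjusted p = 0.64). *Lrig1*, a restraint on EGF receptors in stem cells, was the lower member (log2 fold change -1.34 ± 0.28, adjusted p = 0.002).

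The promoters of 2 Wnt target genes are shown because they hold the core that TCF and LEF factors bind. The core ATCAAAG, read on both strands of 250 bases before to 50 bases after each RefSeq start (build GRCm38.p6), was found in 3 of 29 promoters of the Wnt target list (10.3%), those of *Sp5*, *Tiam1* and *Tnfrsf19*. It was found in 2.88% of all 18209 promoters matched to the table. Capitals mark the core, at position -104 from the start of *Sp5* (chr2:70474673-70474972, plus strand) and at -202 from that of *Tnfrsf19* (chr14:61037938-61038237, minus strand). A match describes these letters only. *Sp5*, a transcription factor switched on by Wnt signals, had 63.5, 42.8 and 62.9 CPM in WT tumors, against 0.593, 0.788 and 0.0389 CPM in WT adjacent normal tissue (log2 fold change 6.93 ± 1.03, adjusted p = 1.8e-04).
Sp5: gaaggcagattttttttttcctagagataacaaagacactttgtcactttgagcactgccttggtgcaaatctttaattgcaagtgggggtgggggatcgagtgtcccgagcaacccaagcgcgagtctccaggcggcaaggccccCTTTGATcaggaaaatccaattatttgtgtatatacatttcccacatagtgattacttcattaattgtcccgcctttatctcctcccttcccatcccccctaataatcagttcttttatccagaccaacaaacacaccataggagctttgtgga
Tnfrsf19: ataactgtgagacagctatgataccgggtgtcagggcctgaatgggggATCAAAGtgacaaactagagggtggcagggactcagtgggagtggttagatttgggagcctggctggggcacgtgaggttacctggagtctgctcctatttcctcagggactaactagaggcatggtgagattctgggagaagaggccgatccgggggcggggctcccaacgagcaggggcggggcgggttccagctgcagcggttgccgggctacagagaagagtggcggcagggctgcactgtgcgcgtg

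Genes of Paneth cells and of antimicrobial defence had the largest median rise of the epithelial lists described here. This list is not purely epithelial, since it also holds genes counted here among those of neutrophils and macrophages. Of 24 tested, 18 were higher, none lower and 6 not called, with a median log2 fold change of 4.60. *Lyz1*, the lysozyme of Paneth cells, had 2256, 1320 and 2082 CPM in WT tumors, against 14.1, 33.4 and 7.79 CPM in WT adjacent normal tissue (log2 fold change 6.68 ± 1.18, adjusted p = 6.0e-04). *Lyz2*, the lysozyme of myeloid cells, had 566, 592 and 581 CPM in WT tumors, against 558, 319 and 205 CPM in WT adjacent normal tissue. It did not pass the test (log2 fold change 0.69 ± 0.29, adjusted p = 0.073), so the 2 lysozyme genes differed widely in their change. *Mmp7*, the protease that activates defensins in mouse Paneth cells, had 957, 401 and 556 CPM in WT tumors, against 3.37, 10.5 and 0.175 CPM in WT adjacent normal tissue (log2 fold change 7.09 ± 1.46, adjusted p = 0.0016). *Itln1*, an intelectin that binds microbial sugars, had 588, 137 and 321 CPM in WT tumors, against 1.97, 4.84 and 1.38 CPM in WT adjacent normal tissue (log2 fold change 7.00 ± 0.94, adjusted p = 9.4e-05). In *Lyz1*, *Mmp7* and *Itln1* the tumor of mouse2988 was highest, as in 13 of the 18 higher members and in 58.4% of all genes called higher. *Pla2g2a*, a secreted phospholipase that kills bacteria, rose by 4.07 ± 0.43 (adjusted p = 2.3e-05). All 5 alpha-defensin genes of the list rose, such as *Defa22* (6.91) and *Defa30* (7.92). Alpha-defensin genes are near-identical, so how reads were shared out among them is uncertain. *Reg4*, of deep crypt secretory cells, overlapped between the tissues (log2 fold change -0.10 ± 0.39, adjusted p = 0.86).

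Genes of the fetal-like state that the injured gut takes on were mixed. Of 19 tested, 10 were higher and none lower, and without the tumor of mouse2988 the count was 6. *Cldn4*, a tight junction claudin, had 771, 332 and 446 CPM in WT tumors, against 59.1, 62.4 and 56.6 CPM in WT adjacent normal tissue (log2 fold change 3.12 ± 0.27, adjusted p = 7.6e-06). *Msln* (mesothelin) had 32.5, 11.7 and 13.95 CPM in WT tumors, against 0.808, 0.563 and 1.23 CPM in WT adjacent normal tissue (log2 fold change 4.47 ± 0.64, adjusted p = 1.4e-04), while the mesothelial markers *Upk3b* and *Lrrn4* together stayed at or below 0.876 CPM in every library. *Anxa1* and *S100a6* lay below the fold limit (log2 fold changes of 0.88 and 0.99). Products foreign to the colon surface appeared too. *Muc6*, a mucin of gastric glands, had 4.61, 21.6 and 29.4 CPM in WT tumors, against 0.216, 0.428 and 0.0779 CPM in WT adjacent normal tissue (log2 fold change 6.28 ± 1.32, adjusted p = 0.0019). *Krt15*, a keratin of stratified and ductal epithelium, had 9.27, 8.14 and 11.5 CPM in WT tumors, against 0.512, 1.13 and 1.27 CPM in WT adjacent normal tissue (log2 fold change 3.30 ± 0.79, adjusted p = 0.0046). Of 13 genes of stratified epithelium 6 were higher, and 3 without mouse2989 or without mouse2990. The basal markers *Krt5*, *Krt14* and *Trp63* together summed to 22.2, 7.85 and 8.37 CPM in WT tumors, against 5.28, 2.93 and 0.935 CPM in WT adjacent normal tissue. None of the 3 was called in the main fit, but *Krt14* was in some alternatives (adjusted p 0.0032 to 0.39).

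Genes of the mature colon surface fell. Of 37 genes of absorptive colonocytes tested, 28 were lower and 1 was higher, with a median log2 fold change of -1.85, and the count of lower members lay between 23 and 28 over all alternative fits. In whole tissue, fewer cells of a type and less RNA per cell cannot be told apart, here and below. *Car4*, a carbonic anhydrase of the brush border, had 59.7, 57.9 and 46.9 CPM in WT tumors, against 799, 855 and 935 CPM in WT adjacent normal tissue (log2 fold change -3.98 ± 0.64, adjusted p = 3.1e-04). *Slc20a1*, a phosphate transporter, had 48.9, 73.03 and 51.1 CPM in WT tumors, against 329, 346 and 906 CPM in WT adjacent normal tissue (log2 fold change -3.19 ± 0.42, adjusted p = 8.8e-05). *Abcb1a*, an efflux pump that keeps drugs out of the tissue, had 24.3, 101 and 50 CPM in WT tumors, against 607, 669 and 1410 CPM in WT adjacent normal tissue (log2 fold change -3.93 ± 0.59, adjusted p = 1.9e-04). The tissues were far apart in all of these genes, with the highest tumor well below the lowest adjacent normal library. *Slc16a1*, which imports butyrate, and *Slc9a2*, a sodium-proton exchanger, fell by 1.85 and 1.96 on the log2 scale. *Krt20*, a keratin of surface cells, had 527, 672 and 503 CPM in WT tumors, against 956, 883 and 973 CPM in WT adjacent normal tissue, lower in all tumors but short of the test (log2 fold change -0.72 ± 0.36, adjusted p = 0.12). The hormone gene *Guca2b* (uroguanylin) was the one higher member, with 38.5, 10.6 and 17.7 CPM in WT tumors, against 5.98, 5.81 and 3.27 CPM in WT adjacent normal tissue (log2 fold change 2.15 ± 0.45, adjusted p = 0.0018). Its neighbour and paralog *Guca2a* (guanylin) had 100.3, 35.2 and 51 CPM in WT tumors, against 176, 162 and 107 CPM in WT adjacent normal tissue, and went the other way (log2 fold change -1.26 ± 0.44, adjusted p = 0.034). The call of *Guca2a* ended without mouse2989 (log2 fold change -0.90, adjusted p = 0.18) or mouse2990 (log2 fold change -1.33, adjusted p = 0.097), without only their tumors, and in 3 further fits (adjusted p 0.0011 to 0.18 over the alternatives).

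Of 19 goblet cell genes, 13 were lower and 1 higher. *Muc2*, the gel-forming mucin of the colon, had 519.8, 1246 and 709.7 CPM in WT tumors, against 4490, 3301 and 3611 CPM in WT adjacent normal tissue (log2 fold change -2.20 ± 0.45, adjusted p = 0.0017). *Atoh1*, the transcription factor that sets secretory fate, had 14.9, 24.1 and 16.95 CPM in WT tumors, against 78.5, 64.01 and 79.4 CPM in WT adjacent normal tissue (log2 fold change -1.98 ± 0.25, adjusted p = 5.9e-05). *Clca1*, a protease that processes mucus, had 874, 1194 and 408 CPM in WT tumors, against 4428, 4976 and 7090 CPM in WT adjacent normal tissue (log2 fold change -2.74 ± 0.57, adjusted p = 0.0019), and *Fcgbp*, another mucus protein, fell by 2.34. *Clca1*, *Fcgbp*, *Muc2*, *Muc3* and *Pigr* were the 5 lower genes with the largest difference in mean CPM. *Tff3*, the trefoil peptide secreted with mucus, had 477, 223 and 277 CPM in WT tumors, against 866, 787 and 312 CPM in WT adjacent normal tissue, which overlapped (log2 fold change -1.01 ± 0.58, adjusted p = 0.17). *Foxa3*, a transcription factor of goblet cells, was the higher member, and its libraries overlapped (log2 fold change 1.04 ± 0.35, adjusted p = 0.027). That call ended with the mouse as a replicate block (log2 fold change 0.90, adjusted p = 0.054), without mouse2988 (log2 fold change 0.42, adjusted p = 0.33) or its tumor, without mouse2990 (log2 fold change 1.03, adjusted p = 0.081) and in 5 other fits (adjusted p 0.0061 to 0.33 over the alternatives). Among 10 mucin genes, the membrane mucins *Muc3* and *Muc4* fell by 3.49 and 1.83, while *Muc16* and *Muc20* rose by 4.53 and 2.96 from low levels.

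Of 25 enteroendocrine genes, 19 were lower, with a median log2 fold change of -3.27, the lowest median of the epithelial lists described here. *Insl5*, a hormone of colonic L cells, had 0.906, 3.98 and 0.176 CPM in WT tumors, against 62.8, 77.1 and 53.3 CPM in WT adjacent normal tissue (log2 fold change -5.17 ± 0.86, adjusted p = 3.8e-04). *Cpe*, a carboxypeptidase that matures peptide hormones, had 7.89, 18.7 and 15.9 CPM in WT tumors, against 96.7, 111 and 93.05 CPM in WT adjacent normal tissue (log2 fold change -2.82 ± 0.39, adjusted p = 1.1e-04). The fall reached from hormones and granule proteins to *Nkx2-2*, a transcription factor of the lineage (log2 fold change -3.27 ± 0.55, adjusted p = 4.4e-04). *Nts* (neurotensin) and *Isl1*, a transcription factor, were the 2 higher members. *Isl1* had 18.6, 18.2 and 31.7 CPM in WT tumors, against 5.09, 5.15 and 5.63 CPM in WT adjacent normal tissue (log2 fold change 2.11 ± 0.45, adjusted p = 0.002), and *Nts* (log2 fold change 3.35 ± 0.95, adjusted p = 0.012) lost its call without mouse2990 (log2 fold change 2.94, adjusted p = 0.094, within 6.4e-04 to 0.094 over the alternatives). In 18 of the 19 lower members the tumor of mouse2989 had the highest level of the 3 tumors, as in 70.0% of all genes called lower.

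Of 16 tuft cell genes, 3 were higher and 5 lower. *Avil* (advillin), an actin-binding protein of the tuft, had 89.2, 65.2 and 87.8 CPM in WT tumors, against 5.01, 5.31 and 4.400 CPM in WT adjacent normal tissue. All tumors lay far above all adjacent normal libraries (log2 fold change 4.04 ± 0.37, adjusted p = 8.7e-06). *Trpm5*, the taste-pathway channel of tuft cells, had 0.474, 0.856 and 0.235 CPM in WT tumors, against 3.42, 2.77 and 3.33 CPM in WT adjacent normal tissue (log2 fold change -2.56 ± 0.64, adjusted p = 0.0058), and its call ended without mouse2990 (log2 fold change -2.18, adjusted p = 0.056, within 2.4e-04 to 0.056 over the alternatives). The count of lower tuft genes was 1 without mouse2990 and 3 without mouse2988, and that of higher ones was 1 without mouse2988 or mouse2989.

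Of 17 pan-epithelial genes 1 was higher, 4 were lower and 12 were not called, with a median log2 fold change of -0.51, and 8 did not overlap downward. For comparison, 12.9% of all genes tested were lower and 25.4% did not overlap downward. The higher member was *Krt18*, a keratin of simple epithelium (log2 fold change 1.14 ± 0.40, adjusted p = 0.033). It lost its call without mouse2988 (log2 fold change 0.63, adjusted p = 0.22), without mouse2990 (log2 fold change 1.09, adjusted p = 0.087) and in 4 other fits (adjusted p 0.011 to 0.27 over the alternatives). *Epcam*, an adhesion protein of all gut epithelium, had 1662, 1402 and 1188 CPM in WT tumors, against 1710, 1540 and 1357 CPM in WT adjacent normal tissue, which overlapped (log2 fold change -0.12 ± 0.18, adjusted p = 0.64). *Hnf4a*, a transcription factor of mature enterocytes, had 306, 419 and 292 CPM in WT tumors, against 841, 789 and 1003 CPM in WT adjacent normal tissue (log2 fold change -1.37 ± 0.22, adjusted p = 3.2e-04). *Klf4* and *Vdr*, the vitamin D receptor, fell by 1.84 and 2.50. Of 22 epithelial transcription factor genes, 10 were lower and 3 were higher. The higher ones were *Prox1*, a Wnt target in colon tumors (log2 fold change 4.79 ± 0.72, adjusted p = 1.9e-04), *Onecut2* (log2 fold change 5.59 ± 1.22, adjusted p = 0.0025) and *Isx*, which lost its call without mouse2990 (log2 fold change 1.5, adjusted p = 0.065, within 2.6e-04 to 0.065 over the alternatives).

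**Figure D2:**
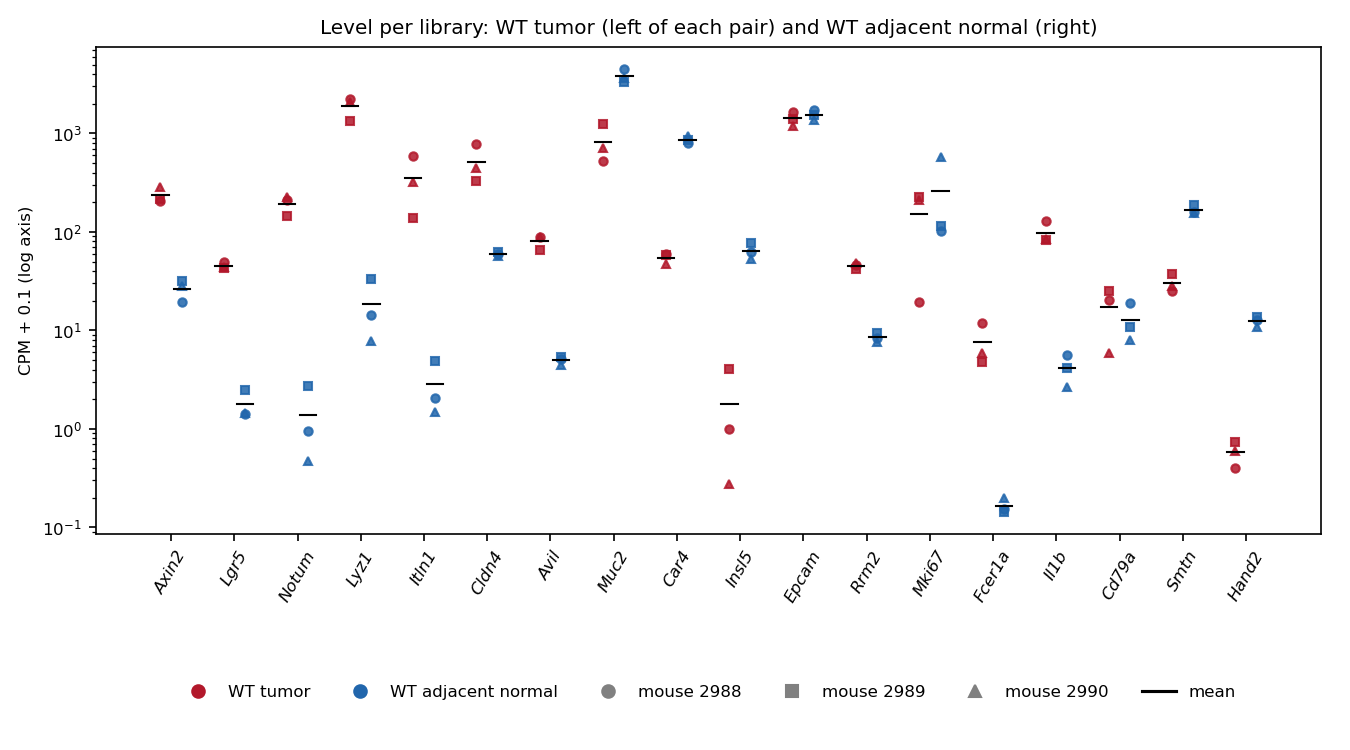
Level of 18 genes in each library, as CPM + 0.1 on a log axis, with WT tumors (red) left of WT adjacent normal libraries (blue); symbols stand for the 3 mice and bars for the mean. *Epcam*, *Mki67* and *Cd79a* overlapped between the tissues and the other genes did not.

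Genes that copy DNA rose. Of 29 DNA replication genes, 23 were higher and none lower (median 1.32), and 28 did not overlap upward. *Rrm2*, a subunit of ribonucleotide reductase, had 46.2, 41.7 and 48.03 CPM in WT tumors, against 8.33, 9.36 and 7.44 CPM in WT adjacent normal tissue (log2 fold change 2.43 ± 0.29, adjusted p = 4.6e-05). *Gins1*, of the replicative helicase, had 17.3, 10.4 and 13.2 CPM in WT tumors, against 2.16, 3.15 and 2.76 CPM in WT adjacent normal tissue (log2 fold change 2.34 ± 0.28, adjusted p = 5.2e-05). *Pcna*, the sliding clamp, had 213, 152 and 171 CPM in WT tumors, against 67.4, 81.2 and 66.2 CPM in WT adjacent normal tissue (log2 fold change 1.32 ± 0.16, adjusted p = 5.6e-05). *Ccnd1* (cyclin D1) and *Myc*, which drive cells into the cycle, rose by 1.44 ± 0.18 (adjusted p = 5.3e-05) and 1.34 ± 0.19 (adjusted p = 1.5e-04). *Cdkn2a*, which encodes 2 proteins that stop the cycle, had 40.1, 6.496 and 17.9 CPM in WT tumors, against 0.674, 0.4501 and 0.292 CPM in WT adjacent normal tissue (log2 fold change 5.51 ± 0.88, adjusted p = 2.9e-04). Of 25 mitosis genes 10 were higher, such as *Cdk1* (log2 fold change 1.55 ± 0.32, adjusted p = 0.0017), and 3 without mouse2988. *Mki67*, the most used marker of cycling cells, had 19.4, 224 and 208 CPM in WT tumors, against 102, 115 and 569.9 CPM in WT adjacent normal tissue, and was not called (log2 fold change -0.80 ± 0.76, adjusted p = 0.42). Its lowest value was in the tumor of mouse2988 and its highest in the adjacent normal tissue of mouse2990. *Top2a*, another gene of dividing cells, had 110.4, 207 and 202 CPM in WT tumors, against 51.8, 63.6 and 177 CPM in WT adjacent normal tissue (log2 fold change 0.83 ± 0.51, adjusted p = 0.21). The exons of *Mki67* and *Top2a* span 10061 and 9013 bases, against 2771 for *Rrm2* and 2400 for *Pcna*. Genes as long were also called higher, such as *Lgr5* (10264 bases) and *Lama5* (11388 bases). *Mki67* was not called in any alternative fit, including that with the length trend removed (adjusted p 0.2 to 0.9). Whether length had a part in the values of *Mki67* and *Top2a* was not tested.

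Gene length moved with the change in mouse2988 and mouse2990. Tested genes with a known exonic length and a mean log2 CPM over 1 across the 16 libraries were put in 4 groups of nearly equal size. The shortest group (3387 genes of 123 to 2774 exonic bases) had a median within-mouse log2 ratio of 0.62, -0.07 and 0.37, and the longest (3386 genes of 6808 bases and more) had -0.50, 0.04 and -0.36. The shortest group held 652 higher and 303 lower genes, and the longest held 190 higher and 477 lower genes. With each library's length trend removed, 1868 genes were higher and 2213 lower, among them 1714 and 2024 of those called without the correction. The DNA replication list then had 22 higher members and the mitosis list 10. What set the length trend was not tested.

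**Figure D3:**
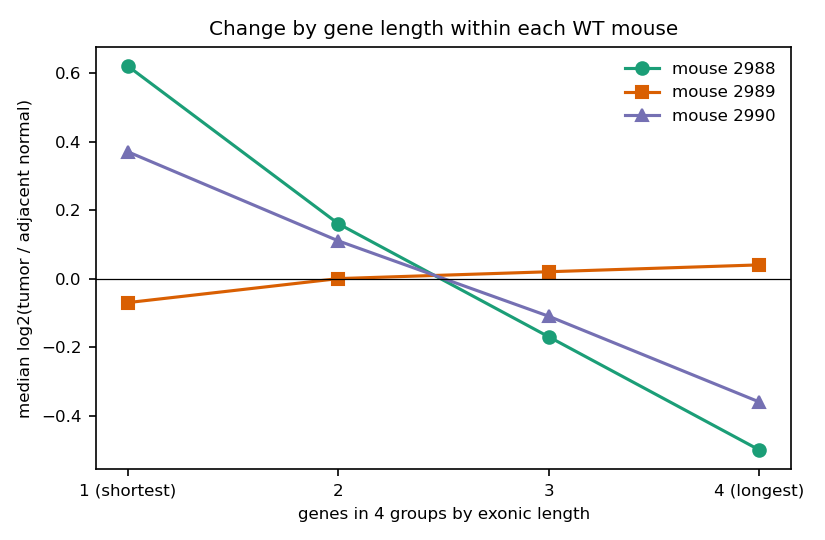
Median log2 ratio of tumor over adjacent normal (y axis) in each WT mouse, over genes put in 4 groups by exonic length (x axis). The medians of mouse2988 run from 0.62 in the shortest genes to -0.50 in the longest and those of mouse2990 from 0.37 to -0.36, and those of mouse2989 stay between -0.07 and 0.04.

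Metabolic genes divided by pathway. Of 36 genes of xenobiotic metabolism, 24 were lower and 3 higher, with a median log2 fold change of -2.22. *Adh1*, an alcohol dehydrogenase that also oxidizes retinol, had 112, 278 and 56.4 CPM in WT tumors, against 1326, 1683 and 1168 CPM in WT adjacent normal tissue (log2 fold change -3.22 ± 0.53, adjusted p = 3.7e-04). *Gstm3*, a glutathione transferase, had 3.84, 5.35 and 2.497 CPM in WT tumors, against 30.6, 38.4 and 27.9 CPM in WT adjacent normal tissue (log2 fold change -3.04 ± 0.37, adjusted p = 5.2e-05). *Ugt1a1*, which attaches glucuronate to bilirubin and drugs, fell by 2.35. The higher members were *Cyp2b10*, *Gsta4* and *Ces1g*. *Cyp2b10*, a cytochrome P450, had 7.55, 3.31 and 10.3 CPM in WT tumors, against 0.0269, 0.225 and 0 CPM in WT adjacent normal tissue (log2 fold change 6.35 ± 1.25, adjusted p = 0.0012). Of 28 genes of fatty acid oxidation, 9 were lower and none higher, such as *Cpt1a*, which brings fatty acids into mitochondria (log2 fold change -1.47 ± 0.22, adjusted p = 1.9e-04), and the count was 4 without mouse2990. Of 39 nuclear genes of oxidative phosphorylation, 37 were not called (median -0.02), and the mice differed, with median log2 ratios of 0.49, -0.62 and -0.05.

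Of 23 nucleotide synthesis genes 5 were higher, none lower and 18 not called, where 12.1% of all genes tested were higher. The 5 encode enzymes that make serine or use folate for one-carbon units, and other folate enzymes of the list were not called. *Phgdh*, the first enzyme of serine synthesis, had 123, 41.3 and 54.5 CPM in WT tumors, against 10.6, 14.8 and 6.52 CPM in WT adjacent normal tissue (log2 fold change 2.77 ± 0.44, adjusted p = 3.1e-04). *Psat1*, the next enzyme, had 50.8, 29.3 and 33.9 CPM in WT tumors, against 6.84, 7.92 and 4.89 CPM in WT adjacent normal tissue (log2 fold change 2.54 ± 0.30, adjusted p = 4.6e-05). *Mthfd2*, of the mitochondrial folate cycle, rose by 1.80 ± 0.29 (adjusted p = 3.4e-04), and *Psph* and *Shmt2* by 1.27 and 1.38. Without mouse2988 the count was 3, and *Shmt2* ended at log2 fold change 1.02, adjusted p = 0.063 and *Psph* at log2 fold change 0.90, adjusted p = 0.052 (within 6.9e-04 to 0.063 and 2.0e-04 to 0.052 over the alternatives). *Slc7a11*, the cystine importer, had 16.3, 21.2 and 44.4 CPM in WT tumors, against 3.99, 2.36 and 2.96 CPM in WT adjacent normal tissue (log2 fold change 3.14 ± 0.53, adjusted p = 4.1e-04), opposite to *Cth*, which makes cysteine inside the cell. *Slc16a3*, the lactate exporter MCT4, had 127, 79.1 and 67.2 CPM in WT tumors, against 21.5, 10.4 and 5.92 CPM in WT adjacent normal tissue (log2 fold change 2.86 ± 0.36, adjusted p = 5.8e-05), while 26 of 33 genes of glycolysis and hypoxia were not called. *Hpgd*, which breaks down prostaglandin E2, fell by 1.82 and *Slco2a1*, which imports it for that purpose, by 1.74.

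Immune genes rose by cell type to very different degrees. Mast cell genes led, with 11 of 12 tested higher and a median log2 fold change of 5.79. *Fcer1a*, the binding chain of the high-affinity IgE receptor, had 11.9, 4.62 and 5.79 CPM in WT tumors, against 0.0539, 0.04501 and 0.0974 CPM in WT adjacent normal tissue (log2 fold change 6.74 ± 1.03, adjusted p = 2.3e-04). *Tpsb2*, a mast cell tryptase, had 18.4, 12.2 and 13.8 CPM in WT tumors, against 0.269, 0.293 and 0.0389 CPM in WT adjacent normal tissue (log2 fold change 6.23 ± 1.07, adjusted p = 4.8e-04). *Hdc*, which makes histamine, had 26.6, 22.4 and 25.5 CPM in WT tumors, against 2.102, 1.08 and 0.759 CPM in WT adjacent normal tissue (log2 fold change 4.25 ± 0.69, adjusted p = 3.4e-04). The protease *Mcpt4* rose by 5.99 ± 1.09 (adjusted p = 7.0e-04), and it belongs to a family of similar protease genes whose reads are hard to assign. *Kit*, the stem cell factor receptor of mast cells and of the pacemaker cells of gut muscle, had 15.01, 27.7 and 17.7 CPM in WT tumors, against 37.05, 43.3 and 64.8 CPM in WT adjacent normal tissue and was lower (log2 fold change -1.26 ± 0.32, adjusted p = 0.0062), though not without mouse2990 (log2 fold change -0.91, adjusted p = 0.1, within 8.3e-04 to 0.1 over the alternatives). Of 5 genes of the pacemaker cells 4 were lower, *Kit* among them, such as *Ano1*, their chloride channel (log2 fold change -1.71 ± 0.25, adjusted p = 1.8e-04). Of 9 genes of eosinophils and their attractants, 5 were higher, 1 lower and 3 not called. *Prg2* and *Il5ra* were among those not called (log2 fold changes of 1.17 and 1.82). Over the alternatives their adjusted p ran from 0.06 to 0.4 and from 0.014 to 0.25, so *Il5ra* was called in some fits. *Ccl24* (eotaxin-2) had 51.3, 18.1 and 15.7 CPM in WT tumors, against 0.404, 0.5402 and 0.292 CPM in WT adjacent normal tissue (log2 fold change 6.10 ± 0.73, adjusted p = 4.7e-05), and *Ccl11* (eotaxin-1), made by stromal cells, was the lower member (log2 fold change -1.53 ± 0.35, adjusted p = 0.0035).

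Neutrophil genes and their attractants rose without exception among those called. Of 19 neutrophil genes 13 were higher, and of 7 genes of neutrophil-attracting chemokines 5 were higher. *Cxcl2* had 38.04, 41.3 and 41.2 CPM in WT tumors, against 0.862, 1.46 and 1.11 CPM in WT adjacent normal tissue (log2 fold change 5.12 ± 0.52, adjusted p = 1.7e-05). *Cxcl5*, an epithelial chemokine, had 174, 244 and 170.4 CPM in WT tumors, against 9.86, 8.94 and 1.17 CPM in WT adjacent normal tissue (log2 fold change 4.89 ± 1.02, adjusted p = 0.0019). *Clec4d*, a lectin receptor of neutrophils and monocytes, rose by 3.42 ± 0.53 (adjusted p = 2.4e-04), and *Mmp9*, a gelatinase stored in neutrophil granules, by 4.0 ± 0.88 (adjusted p = 0.0027). *Ly6g*, the marker used to sort neutrophils, and *Cd177* were not called (log2 fold changes of -0.23 and -0.65).

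Of 15 IL-1 family genes, 10 were higher. *Il1b* had 128, 82.3 and 83.7 CPM in WT tumors, against 5.52, 4.01 and 2.59 CPM in WT adjacent normal tissue (log2 fold change 4.61 ± 0.76, adjusted p = 3.7e-04). *Il36g*, an epithelial alarm cytokine, had 5.05, 4.88 and 5.58 CPM in WT tumors, against 0.216, 0.113 and 0.0389 CPM in WT adjacent normal tissue (log2 fold change 5.43 ± 1.06, adjusted p = 0.0012). *Il18*, which colon epithelium makes in health, had 22.5, 22.8 and 19.98 CPM in WT tumors, against 48.01, 94.8 and 94.1 CPM in WT adjacent normal tissue and was the lower member (log2 fold change -1.86 ± 0.32, adjusted p = 5.0e-04). *Il23a*, the p19 subunit of IL-23, had 8.32, 14.8 and 16.01 CPM in WT tumors, against 0.404, 0.5402 and 0.837 CPM in WT adjacent normal tissue (log2 fold change 4.44 ± 0.60, adjusted p = 9.7e-05), so all tumors lay far above all adjacent normal libraries. Its receptor gene *Il23r* was too low to be tested, with 0, 0.162 and 0.147 CPM in WT tumors and 0.189, 0.158 and 0.136 CPM in WT adjacent normal tissue. *Il12rb1*, the other receptor chain, had 3.19, 3.51 and 2.97 CPM in WT tumors, against 2.26, 1.49 and 0.545 CPM in WT adjacent normal tissue, above in every tumor but not called (log2 fold change 1.18 ± 0.48, adjusted p = 0.062). *Il17re*, the epithelial receptor chain for IL-17C, had a log2 fold change of -2.34 ± 0.31 (adjusted p = 8.8e-05). The gene of its ligand, *Il17c*, was called higher and is not described here. Among 19 genes of IL-12, IL-23, IL-17 and IL-22 tested, 4 were higher, 2 lower and 13 not called, where 12.1% of all genes tested were higher and 12.9% lower.

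Most T cell genes rose, as did most genes of Treg cells and cytotoxic cells, and B cell genes did not. Of 17 T cell genes 12 were higher, of 17 Treg genes 12, and of 18 cytotoxic and natural killer genes 11, with none lower in any of the 3 lists. The 5, 5 and 7 other members were not called. Without mouse2990 the count of higher T cell genes was 6. The 4 T cell markers summed to 48.99, 55.98 and 39.25 CPM in WT tumors, against 48.04, 29.89 and 18.71 CPM in WT adjacent normal tissue, which overlapped. Among these markers 3 were higher, and *Cd4*, the most abundant, was not called (log2 fold change -0.09). *Zap70*, the kinase of the T cell receptor, had 16.3, 13.99 and 16.5 CPM in WT tumors, against 3.29, 2.57 and 1.29 CPM in WT adjacent normal tissue (log2 fold change 2.72 ± 0.53, adjusted p = 0.0012). *Foxp3*, the factor that defines Treg cells, had 1.98, 3.07 and 2.38 CPM in WT tumors, against 0.943, 0.315 and 0.195 CPM in WT adjacent normal tissue (log2 fold change 2.37 ± 0.66, adjusted p = 0.01). That call ended without mouse2989 (log2 fold change 1.96, adjusted p = 0.08) or mouse2990 (log2 fold change 2.02, adjusted p = 0.078), within 9.0e-04 to 0.08 over the alternatives. *Tnfrsf9* (4-1BB), of activated T cells, rose by 3.91 ± 0.69 (adjusted p = 5.7e-04). *Gzmb*, a granule protease of killer cells, had 23.6, 14.2 and 10.3 CPM in WT tumors, against 2.56, 1.89 and 2.12 CPM in WT adjacent normal tissue (log2 fold change 2.87 ± 0.56, adjusted p = 0.0012). *Pdcd1* (PD-1), an inhibitory receptor, had 9.19, 4.88 and 4.96 CPM in WT tumors, against 1.401, 0.833 and 0.3505 CPM in WT adjacent normal tissue (log2 fold change 2.89 ± 0.57, adjusted p = 0.0013). Of 15 B cell genes none was called and of 15 plasma cell genes only *Pigr*, which epithelial cells use to carry IgA, was lower. *Cd79a*, a chain of the B cell receptor, had 20.3, 25 and 5.85 CPM in WT tumors, against 19, 10.6 and 7.94 CPM in WT adjacent normal tissue (log2 fold change 0.45 ± 0.86, adjusted p = 0.7). The mice disagreed on B cell genes, with median log2 ratios of -0.63, 1.85 and -0.85 over the list. Of 24 macrophage and monocyte genes 5 were higher, 2 lower and 17 not called, where 12.1% of all genes tested were higher and 12.9% lower. Without mouse2989 or mouse2990, 2 and 1 were higher. The higher members, *Spp1*, *Arg1*, *Nos2*, *Fcgr1* and *Msr1*, are not described here. *Cd163*, a scavenger receptor of resident macrophages, had 0.0863, 0.517 and 0 CPM in WT tumors, against 3.69, 3.15 and 6.64 CPM in WT adjacent normal tissue (log2 fold change -4.27 ± 1.04, adjusted p = 0.0049), and *C1qa*, a complement gene of macrophages, had 197, 136 and 153 CPM in WT tumors, against 119.9, 86.7 and 34.7 CPM in WT adjacent normal tissue, above in every tumor but not called (log2 fold change 1.01 ± 0.40, adjusted p = 0.053).

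Interferon-stimulated genes were higher in 19 of 26 tested and lower in none (median 1.93), but the count was 8 without mouse2988 and 5 without mouse2990. *Usp18*, which damps the interferon receptor, had 85.1, 32.2 and 72.4 CPM in WT tumors, against 2.78, 3.94 and 1.85 CPM in WT adjacent normal tissue (log2 fold change 4.47 ± 0.79, adjusted p = 5.8e-04). *Cxcl10*, a chemokine for T cells, had 133, 52.3 and 86.02 CPM in WT tumors, against 4.71, 3.196 and 3.45 CPM in WT adjacent normal tissue (log2 fold change 4.58 ± 0.87, adjusted p = 9.8e-04). *Irgm1*, a GTPase against intracellular microbes, had 354, 191 and 212 CPM in WT tumors, against 63.7, 67.1 and 43.6 CPM in WT adjacent normal tissue (log2 fold change 2.12 ± 0.48, adjusted p = 0.003). *Isg15*, a ubiquitin-like protein, had 160.1, 37.7 and 85.3 CPM in WT tumors, against 11.1, 12.5 and 5.35 CPM in WT adjacent normal tissue (log2 fold change 3.29 ± 0.93, adjusted p = 0.012), and lost its call without mouse2988 (log2 fold change 2.77, adjusted p = 0.088) or mouse2990 (log2 fold change 3.06, adjusted p = 0.076), within 0.0012 to 0.088 over the alternatives. Of 17 antigen presentation genes 11 were higher, 4 without the tumor of mouse2988, 5 without mouse2990 and 17 with the mouse as a replicate block in the 6 WT libraries alone, such as *B2m*, the light chain of MHC class I, with 2119, 1332 and 1721 CPM in WT tumors, against 713, 454 and 288 CPM in WT adjacent normal tissue (log2 fold change 1.83 ± 0.42, adjusted p = 0.0031). *Ido1*, an interferon-induced enzyme that consumes tryptophan, rose by 3.24 ± 0.60 (adjusted p = 8.4e-04).

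The promoters of 3 of these genes are shown for the interferon-stimulated response element, written as GAAA, any 2 bases and GAAA in a row and read on both strands, with overlapping matches counted apart. It was found in 13 of 22 promoters of the list (59.1%), against 3.15% of all 18209 promoters of the same 300 bases, and in 4.18% of promoters of higher genes and 2.43% of those of lower genes. Capitals mark it. *Isg15* (chr4:156200769-156201068, minus strand) holds 3 overlapping matches from position -78, *Cxcl10* (chr5:92348840-92349139, minus strand) holds 1 at -213 and *Irgm1* (chr11:48871371-48871670, minus strand) holds 2 from -30.
Isg15: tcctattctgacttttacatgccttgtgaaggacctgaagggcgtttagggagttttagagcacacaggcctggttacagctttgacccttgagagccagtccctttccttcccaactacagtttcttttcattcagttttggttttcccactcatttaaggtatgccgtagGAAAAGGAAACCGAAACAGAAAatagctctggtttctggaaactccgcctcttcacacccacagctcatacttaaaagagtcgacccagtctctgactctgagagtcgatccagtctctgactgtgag
Cxcl10: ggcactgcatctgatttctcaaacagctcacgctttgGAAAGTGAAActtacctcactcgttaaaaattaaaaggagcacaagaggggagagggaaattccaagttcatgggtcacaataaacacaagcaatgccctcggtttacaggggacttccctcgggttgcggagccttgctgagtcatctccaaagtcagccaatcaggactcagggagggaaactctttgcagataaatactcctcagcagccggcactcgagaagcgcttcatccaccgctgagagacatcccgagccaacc
Irgm1: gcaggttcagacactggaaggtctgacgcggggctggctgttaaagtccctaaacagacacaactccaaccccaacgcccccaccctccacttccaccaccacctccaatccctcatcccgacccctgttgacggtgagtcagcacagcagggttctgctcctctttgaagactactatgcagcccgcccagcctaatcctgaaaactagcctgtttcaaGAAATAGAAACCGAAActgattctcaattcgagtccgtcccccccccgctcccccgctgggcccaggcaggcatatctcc

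**Figure D4:**
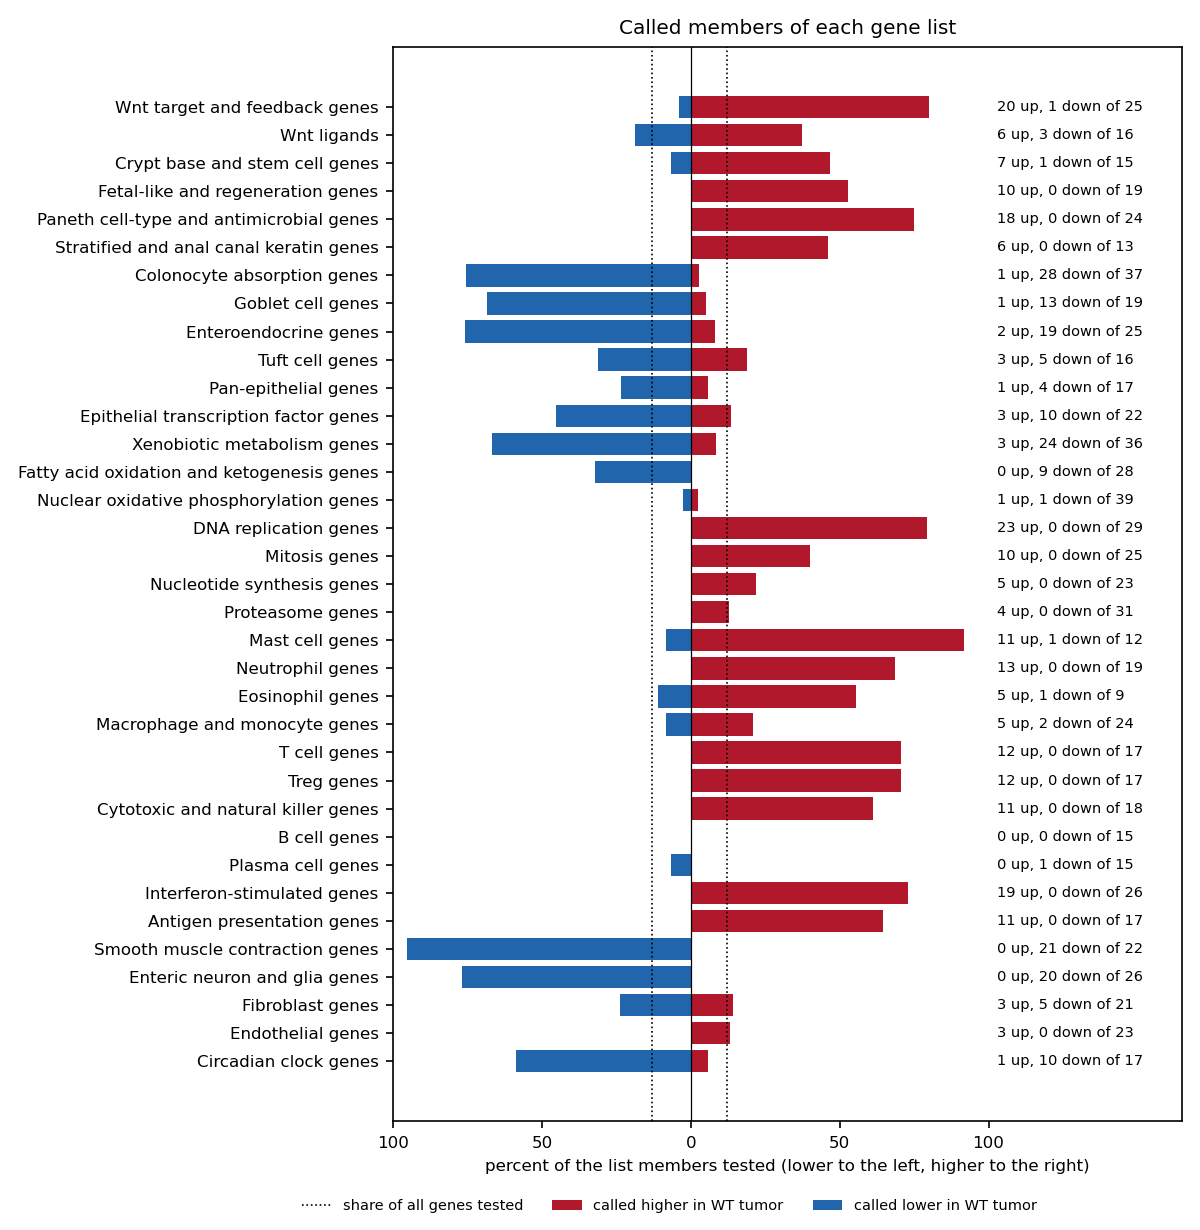
Share of the tested members of 35 gene lists that were called higher (right, red) or lower (left, blue) in WT tumors, with the counts at the right edge; dotted lines mark the 12.1% and 12.9% of all genes tested. Wnt target, Paneth cell-type, DNA replication, mast cell and interferon-stimulated genes lie to the right, and colonocyte, goblet, enteroendocrine, xenobiotic, smooth muscle and neuron genes to the left.

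Genes of the gut wall were far lower in tumors. The adjacent normal pieces were full-thickness colon, so a change within muscle or nerve cells and the depth of the piece cannot be told apart. Of 22 smooth muscle genes 21 were lower, with a median log2 fold change of -2.57, and among 26 enteric neuron and glia genes 20 fell (median -3.63), with none higher in either list. *Smtn* (smoothelin), a contractile protein, had 25.1, 37.4 and 28.4 CPM in WT tumors, against 160.0, 188 and 155 CPM in WT adjacent normal tissue (log2 fold change -2.47 ± 0.27, adjusted p = 2.5e-05). *Tpm2*, a muscle tropomyosin, had 62.97, 85.9 and 63.3 CPM in WT tumors, against 619, 732 and 545 CPM in WT adjacent normal tissue (log2 fold change -3.16 ± 0.51, adjusted p = 3.4e-04). *Hand2*, a transcription factor of enteric neurons, had 0.302, 0.6302 and 0.499 CPM in WT tumors, against 12.6, 13.6 and 10.7 CPM in WT adjacent normal tissue (log2 fold change -4.63 ± 0.53, adjusted p = 3.7e-05). *Snap25*, of synaptic vesicle release, had 0.302, 0.953 and 0.411 CPM in WT tumors, against 7.79, 8.04 and 11.4 CPM in WT adjacent normal tissue (log2 fold change -3.96 ± 0.51, adjusted p = 6.7e-05). *Srf*, the factor that drives muscle genes but is made in most cells, overlapped between the tissues (log2 fold change 0.04 ± 0.21, adjusted p = 0.89). Most fibroblast and endothelial genes were not called. Among 21 fibroblast genes 5 were lower and 3 higher, with 1 higher without the tumor of mouse2988. Without overlap, 9 of the 21 lay below and 2 above, against 25.4% and 23.4% of all genes tested. Among 23 endothelial genes 3 were higher and none lower. For comparison, 12.1% of all genes tested were higher and 12.9% lower. *Dcn* (decorin) of fibroblasts and *Pecam1* of endothelium were not called (log2 fold changes of -0.15 and 0.10), but 1 of the 3 fibroblast markers was lower. With the mouse as a replicate block 6 endothelial genes were higher and 1 lower.

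Genes of TGF-beta and BMP signaling went both ways. Of 29 tested 8 were higher, 8 lower and 13 not called (median log2 fold change 0.05), with 4 lower without mouse2990. Over all genes tested 12.1% were higher and 12.9% lower. *Fst* (follistatin), which traps activins, had 19.1, 14.5 and 19.5 CPM in WT tumors, against 0.808, 0.653 and 0.7399 CPM in WT adjacent normal tissue (log2 fold change 4.59 ± 0.62, adjusted p = 1.0e-04). *Bmp7* had 48.8, 33.6 and 46.5 CPM in WT tumors, against 8.41, 6.37 and 4.95 CPM in WT adjacent normal tissue (log2 fold change 2.71 ± 0.27, adjusted p = 1.7e-05), and *Bmp3* had a log2 fold change of -2.98 ± 0.45 (adjusted p = 1.9e-04). The matrix showed no common direction, with 20 of 31 collagen and laminin genes not called, 4 higher and 7 lower. Without mouse2989 or mouse2990, 2 were higher. *Lama5*, a laminin chain of the epithelial basement membrane, rose by 1.56 ± 0.22 (adjusted p = 1.1e-04), and *Postn* (periostin) had 50.3, 124 and 105 CPM in WT tumors, against 453, 449 and 553 CPM in WT adjacent normal tissue (log2 fold change -2.38 ± 0.42, adjusted p = 6.0e-04).

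Genes of the circadian clock were lower in 10 of 17 cases and higher in 1. *Nr1d1* (REV-ERB alpha), a repressor in the clock, had 24.3, 48.5 and 28.5 CPM in WT tumors, against 196, 135 and 119 CPM in WT adjacent normal tissue (log2 fold change -2.15 ± 0.30, adjusted p = 1.2e-04). *Dbp*, an output factor of the clock, had 25.4, 37.9 and 21.6 CPM in WT tumors, against 192, 129 and 83.5 CPM in WT adjacent normal tissue (log2 fold change -2.25 ± 0.45, adjusted p = 0.0014). *Nfil3*, which acts against *Dbp* at shared sites, was the higher member, with 15.96, 8.74 and 7.11 CPM in WT tumors, against 4.07, 2.54 and 1.15 CPM in WT adjacent normal tissue (log2 fold change 2.04 ± 0.51, adjusted p = 0.006). *Clock* and *Bhlhe40* were not called (log2 fold changes of -0.66 and 0.05). Both tissues of a mouse carry the same mouse number, but the time of day at collection is not given in the sources used here. Without mouse2988, which had the highest adjacent normal values of *Nr1d1* and *Dbp*, 5 members were lower. The E-box CACGTG, a palindrome that CLOCK and BMAL1 bind, was found in 6 of 20 promoters of the list (30.0%) and in 8.84% of all promoters. The promoter of *Ciart*, a clock repressor, is shown because it holds 3 E-boxes, in capitals at positions -116, -58 and -44 (chr3:95882179-95882478, minus strand). *Ciart* had 3.45, 5.22 and 4.26 CPM in WT tumors, against 34.2, 16.6 and 9.48 CPM in WT adjacent normal tissue (log2 fold change -2.22 ± 0.51, adjusted p = 0.0035) and lost its call without mouse2988 (log2 fold change -1.47, adjusted p = 0.068, within 8.0e-05 to 0.068 over the alternatives).
Ciart: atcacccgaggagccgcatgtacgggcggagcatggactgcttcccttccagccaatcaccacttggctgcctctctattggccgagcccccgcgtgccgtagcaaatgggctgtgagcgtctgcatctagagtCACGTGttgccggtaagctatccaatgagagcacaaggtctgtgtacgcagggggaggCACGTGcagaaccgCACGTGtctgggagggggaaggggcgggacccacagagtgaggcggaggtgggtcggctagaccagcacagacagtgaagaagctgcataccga

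The mice differed in the size of the change. Over all genes tested the SD of the within-mouse log2 ratio was 1.23, 0.914 and 1.27. Of the 2067 higher genes 2006 were above their own adjacent tissue in all 3 mice, and of the 2210 lower genes 2204 were below it, which the calls largely fix, since they were made on the same libraries. Over all 17122 genes tested, 5017 were above in all 3 mice and 5449 below. The median log2 ratio of the higher genes was 1.60, 1.24 and 1.64 and that of the lower genes was -1.61, -1.11 and -1.65. Thus mouse2989 had the smallest change in both directions. Among the lower genes its tumor had the highest level of the 3 tumors in 70.0%, against 35.8% over all genes tested, and in 23 of 28 colonocyte and 10 of 13 goblet cell genes called lower. *Pigr*, the IgA transporter, had 490.4, 2259 and 616 CPM in WT tumors, against 4001, 4731 and 8100 CPM in WT adjacent normal tissue, with the tumor of mouse2989 well above the other tumors. *Slc6a14*, an amino acid importer, had 20.4, 107 and 18.5 CPM in WT tumors, against 396, 540.0 and 1023 CPM in WT adjacent normal tissue (log2 fold change -3.75 ± 0.59, adjusted p = 2.7e-04), in the same order. Proteasome genes rose in every mouse, most in mouse2988. Of the 31 genes, 31, 30 and 31 had a log2 ratio above 0, with medians of 1.19, 0.32 and 0.68. In 29 the tissues did not overlap upward, against 23.4% of all genes tested. Only 4 were called higher, against 12.1% of all genes tested, and none of them without mouse2988. *Psmb3*, a core subunit, had 369, 105 and 124 CPM in WT tumors, against 80.4, 83.97 and 35.9 CPM in WT adjacent normal tissue (log2 fold change 1.58 ± 0.40, adjusted p = 0.0067), and log2 fold change 0.92, adjusted p = 0.054 without mouse2988 (within 5.1e-04 to 0.07 over the alternatives).

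**Figure D5:**
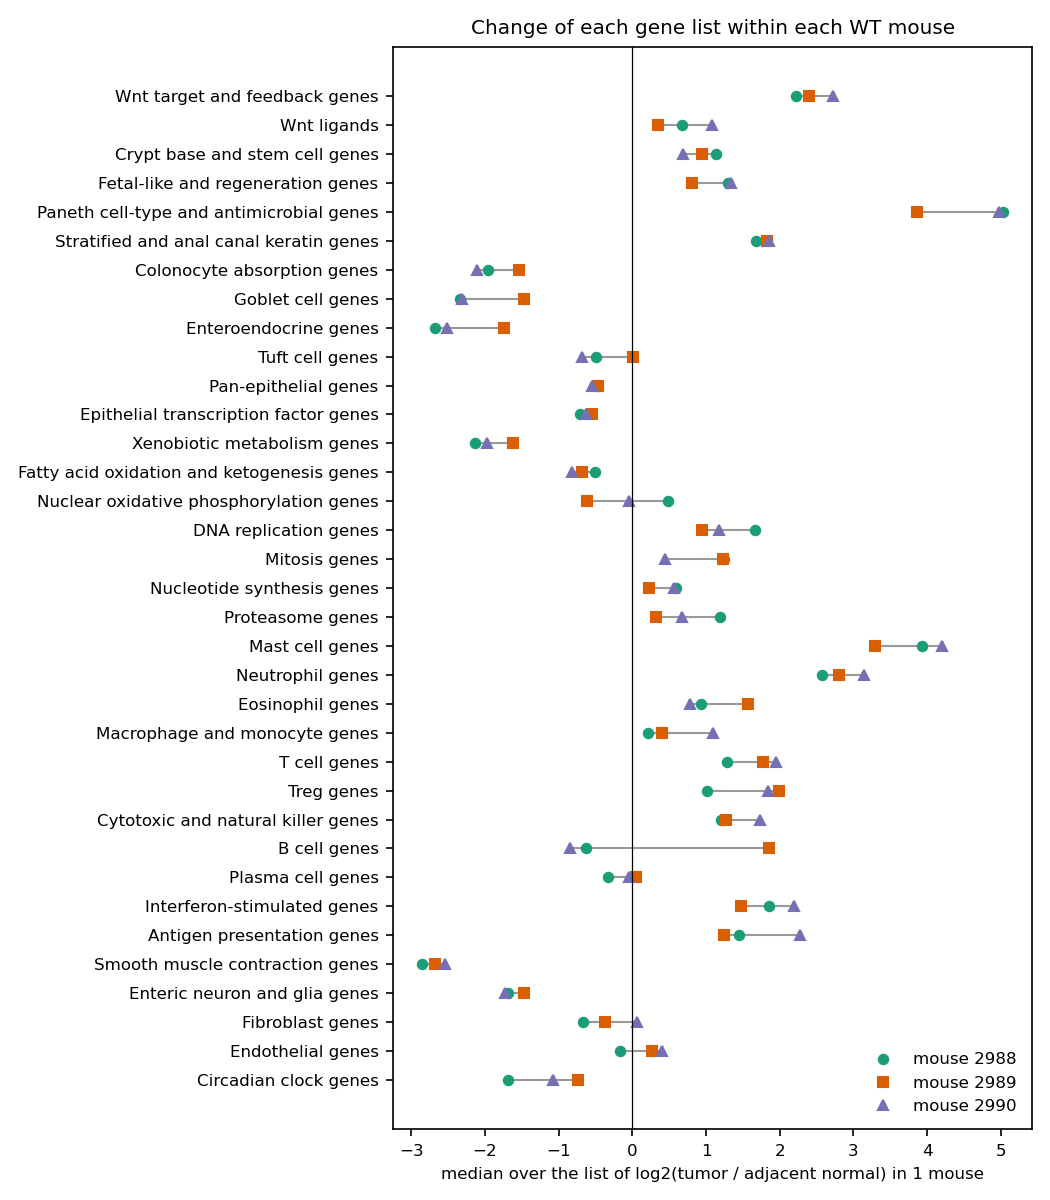
Median log2 ratio of tumor over adjacent normal within each WT mouse (x axis) over the tested members of 35 gene lists (y axis), with a line joining the 3 mice. B cell genes run from -0.85 to 1.85, and the smooth muscle medians stay between -2.85 and -2.54.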

How the data were processed

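RNA of whole tissue was made into poly(A)-selected, stranded libraries and sequenced as paired reads. Per the labels and the methods, the authors trimmed reads with fastp 0.20.0 and estimated transcript abundance with Salmon 1.4.0, and deposited gene counts as whole numbers, not normalized. The transcriptome is given as Gencode version 21, but most gene ID versions do not match that mouse release, so no coordinates come from the files. The deposited normalized tables and the authors' columns of fold changes and p-values were not used. Another 64 columns could not be tied to samples and were left out.

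Counts of all 16 libraries in 4 groups were fitted in edgeR 4.0.16 (R 4.3.3) with TMM scaling, a filter (filterByExpr, minimum count 10) and the quasi-likelihood test, and p-values were adjusted by Benjamini-Hochberg over the genes tested. All fold changes are log2, tumor over adjacent normal. Standard errors, where given, are the size of the log2 fold change over the square root of the test's F statistic. Within-mouse log2 ratios used CPM + 0.5. Tumor and adjacent normal libraries with 1 mouse number come from the same animal. The mouse entered as a replicate block only in an alternative fit, and the deviations of the 2 libraries of a mouse correlated at 0.429, -0.365 and 0.454. DESeq2 1.42.0 and limma 3.58.1 gave alternatives, as did other scalings, filters and thresholds, a length correction, and leaving out each mouse or WT tumor. The fits were tested on simulated data. Promoters are RefSeq windows of 300 bases in GRCm38.p6.

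The comparison and the 70 gene lists were chosen with earlier results of these data known. Genes were named as the 10 largest changes without overlap, the 5 smallest p-values and the 5 largest differences in mean CPM per direction, up to 5 called and 2 uncalled members of each list, the 5 with the widest range between mice, and *Il23a*, *Il23r*, *Il12rb1*, *Foxp3*, *Olfm4* and *Rn18s*. Only some of these are described. *Cdh1*, *Vil1*, *Notum*, *Nkd2*, *Sp5*, *Guca2b*, *Guca2a*, *Foxa3*, *Muc16*, *Muc20*, *Nts*, *Isl1*, *Epcam*, *Onecut2*, *Isx*, *Cyp2b10*, *Gsta4*, *Ces1g*, *Isg15* and *Nfil3* fall outside the rule and were chosen after their values were seen.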

Additional observations from a re-analysis of the deposited data

How the results depend on the processing

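Of the 148 genes described that were called, 135 kept their call in all 22 alternative fits, and none reversed. The remaining 13 are named beside their values. Calls that uncalled genes gained in an alternative fit are not listed gene by gene. The number of calls stayed within 1.5 times in every fit. With the mouse as a replicate block 1997 genes were higher and 2195 lower, and with that replicate block on the 6 WT libraries alone 1881 and 1987. Without the block, those 6 libraries gave 1721 and 1835. Apart from *Krt18*, which was also lost in those 6 libraries without the block, and the values given beside *Foxa3*, endothelial genes and antigen presentation genes, the replicate block changed no call of a gene described. DESeq2 called 2283 higher and 2286 lower. Leaving out a WT mouse or tumor gave 1447 to 2365 higher and 1501 to 2467 lower genes. At any fold 3297 and 3439 genes passed, and beyond a log2 fold of 2 there were 973 and 1067, by construction of those limits. With the length trend removed, the log2 fold change of *Slc12a2* was 0.15 and that of *Srf* -0.14, both opposite in sign. Uncalled genes changed sign when a WT mouse or tumor was left out, with log2 fold changes of -0.046 to 0.090 for *Ephb2*, -0.36 to 0.032 for *Slc12a2*, -0.52 to 0.11 for *Reg4*, -1.56 to 0.17 for *Mki67*, -0.047 to 0.86 for *Cd79a*, -0.26 to 0.26 for *Srf*, -0.28 to 0.051 for *Dcn*, -0.032 to 0.22 for *Pecam1* and -0.090 to 0.35 for *Bhlhe40*. The causes of these shifts were not tested. Leaving out 1 WT mouse moved the fold of 47 of the 148 by over 1.5 times, 16 without mouse2988, 32 without mouse2989 and 17 without mouse2990. The largest shift was 4.28 on the log2 scale for *Hao2* without mouse2989, toward a larger fall, and 3.86 for *Muc16* without mouse2990, toward a larger rise. *Il23r*, at 15 counts in all over the WT tumors and 21 over WT adjacent normal libraries, was under the filter on low counts and was not tested.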

Other observations

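Other gene groups concern enzymes that degrade or remodel the matrix, inhibitory immune receptors and stress-response transcription factors. Of 21 genes of matrix metalloproteinases and their inhibitors 9 were higher and 1 was lower, and the lower call ended without mouse2988 or mouse2990. *Mmp14*, a protease anchored in the membrane, had 183, 195 and 208 CPM in WT tumors, against 90.96, 95.1 and 86.2 CPM in WT adjacent normal tissue (log2 fold change 1.11 ± 0.20, adjusted p = 7.6e-04). *Plaur*, the receptor of the protease urokinase, had 68.7, 30.7 and 29.2 CPM in WT tumors, against 9.62, 8.85 and 5.24 CPM in WT adjacent normal tissue (log2 fold change 2.44 ± 0.38, adjusted p = 2.4e-04). All tumors lay above all adjacent normal libraries in both genes. Of 17 immune checkpoint genes 9 were higher and none lower, such as *Cd276* (B7-H3), with 48.9, 26.6 and 32.3 CPM in WT tumors, against 7.84, 8.15 and 6.27 CPM in WT adjacent normal tissue (log2 fold change 2.28 ± 0.26, adjusted p = 3.5e-05). Of 23 immediate early and AP-1 genes 8 were higher, among them *Egr1*, a factor induced by growth signals (log2 fold change 1.48 ± 0.33, adjusted p = 0.0029).

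Genes by which the colon epithelium senses microbes and instructs its lymphocytes went both ways. Of 23 gasdermin and inflammasome genes 4 were higher and 7 lower, with 4 lower without mouse2990. *Nlrp6*, an inflammasome sensor of gut epithelium, had 35.8, 56.2 and 19.3 CPM in WT tumors, against 197, 199 and 209.8 CPM in WT adjacent normal tissue (log2 fold change -2.44 ± 0.44, adjusted p = 6.7e-04). Of 13 butyrophilin-like and intraepithelial lymphocyte genes 6 were higher, 3 lower and 4 not called (median log2 fold change 1.01). *Btnl1* and *Btnl6*, butyrophilin-like genes that maintain intraepithelial lymphocytes in the mouse gut, had log2 fold changes of -3.50 and -1.66. *Itgae* (CD103), an integrin of those lymphocytes, had 16.2, 22.4 and 17.2 CPM in WT tumors, against 8.89, 4.66 and 5.18 CPM in WT adjacent normal tissue and moved the opposite way (log2 fold change 1.58 ± 0.32, adjusted p = 0.0015).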
